A study of Oryza sativa with 12 samples.

Results

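Roots of rice hold a set of transcripts that are abundant there and nearly missing from leaves, and 105 such loci of the 37960 in the count table are described here. They were chosen from the wild-type libraries alone: the mean over 3 libraries was at least 100 CPM in root (CPM is the usual scaling of a locus's counts to the library total), and the leaf mean was at most 0.2% of the root mean. Of 2185 loci with such a root mean, 108 met the limit in leaf, and 3 of these are left out. The levels in wild-type root and wild-type leaf therefore describe the choice and carry no test.

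The libraries came from 4 groups of 3: f3h root, WT root, f3h leaf and WT leaf, 12 in all. The wild type (WT) was the rice cultivar ZH11, and the other genotype is a line named f3h after flavanone 3-hydroxylase, the enzyme that turns flavanones into dihydroflavonols in flavonoid synthesis. All plants were seedlings 1 month old, grown in hydroponic Kimura solution at 28 °C with 12 h of light. The labels call the f3h genotype a knockdown, whereas the design text speaks of CRISPR mutants, and neither states the targeted locus or how many independent lines were used. Nothing in the labels ties replicate libraries to different plants, so each p-value measures the spread between libraries, which may be technical.

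Plant roots take up water and mineral ions, secrete compounds into the medium and meet low oxygen and microbes, and many genes for transport, cell walls and defence are read mainly there. Most of the 105 loci are given by locus identifier, as the reference table does not pair these loci with names. For 4, a name was paired from general knowledge and checked only by chromosome and approximate position. Such a check cannot tell family members that lie near each other apart. The names are NSHB2, a non-symbiotic haemoglobin, CHT2, a chitinase, GER4, a germin-like protein, and MT4C, a metallothionein. Non-symbiotic haemoglobins bind oxygen tightly and remove nitric oxide, and they are known in plants for their induction under low oxygen. Chitinases cut the chitin of fungal cell walls, germin-like proteins are secreted proteins of the extracellular matrix, and metallothioneins are small proteins rich in cysteine that bind metal ions.

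Library totals ran from 23740780 to 29687320 counts in root and from 31171931 to 37821918 in leaf. WT leaf replicate 1 stood apart: its chi-square per degree of freedom against the other 2 WT leaf libraries was 57.5 and 61.1, whereas replicate pairs not involving it gave 5.42 to 7.09. Among loci listed as flavanone 3-hydroxylase or similar genes, Os10g0536400 lay between 31.9 and 35.2 CPM in f3h root and between 31.9 and 37.7 CPM in WT root. Os03g0122300 lay between 70.0 and 76.6 CPM in f3h root and between 64.9 and 70.8 CPM in WT root. In leaf, Os10g0536400 lay between 81.4 and 87.7 CPM in f3h and between 51.6 and 57.4 CPM in WT, and Os03g0122300 between 22.5 and 25.6 CPM in f3h and between 28.3 and 46.7 CPM in WT. A weakly read locus of the same list, Os04g0662600, had no count in f3h root and 0.0729 to 0.732 CPM in WT root. In leaf it had 0 to 0.0619 CPM in f3h and no count in WT. Another, Os04g0667200, had 0.573 to 1.47 CPM in f3h root and 0.988 to 1.31 CPM in WT root. In leaf that locus had 0 to 0.0544 CPM in f3h and no count in WT. As the targeted locus is not stated, none of these was taken as a check of the genotype label. The labelled organs carried their markers. Summed over 6 root markers (the silicon transporter LSI1, CASP1, SHR1, CSLD1, NRAMP5 and Os02g0662000, which is one of the 105), levels were 2342 to 2379 CPM in f3h root, 2833 to 2941 CPM in WT root, 10.8 to 14.4 CPM in f3h leaf and 10.9 to 17.1 CPM in WT leaf. Most of the root sums was LSI1, at 1857 CPM in f3h root and 2021 CPM in WT root. These markers were picked from longer lists of root and transport genes. Other loci of those lists, among them the metal transporter NRAMP1 and the patterning regulator SCR1, were not higher in root than in leaf in both genotypes. Summed over 6 loci of leaf markers (light-harvesting proteins, Rubisco small subunits, Rubisco activase and a protochlorophyllide reductase), levels were 63.3 to 67.0 CPM in f3h root, 4.50 to 5.61 CPM in WT root, 27968 to 28279 CPM in f3h leaf and 32392 to 40020 CPM in WT leaf. In each root library at most 2 of these 6 loci had no count, and in each leaf library at most 2 of the 6 root markers had none.

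The root comparison asked how these root transcripts differ between f3h and WT. In f3h root 67 of the 105 fell and 30 rose, and 8 did not pass the test (edgeR quasi-likelihood test with Benjamini-Hochberg adjustment over 24583 tested genes, adjusted p threshold 0.05). Of these, 31 fell and 4 rose by at least 1 on the log2 scale, where 9.74% of all tested genes were lower and 4.54% higher by as much. Over all tested genes 25.4% were called lower and 24.9% higher, with a median log2 fold change of 0.01, against 63.8% lower, 28.6% higher and a median of -0.33 over the 105. Among the other 2077 loci with a WT root mean of at least 100 CPM, 45.5% were lower and 30.6% higher, with a median of -0.09, and 124 fell and 11 rose by at least 1, so falls outnumbered rises at that size outside the 105 as well. A high mean in WT root was part of the choice and favours lower values in f3h root, by an amount that was not measured. The leaf markers given above also stood higher in f3h root than in WT root, in 4 of the 4 loci that could be tested, and their part in these differences was not tested. In a whole organ, fewer cells of a type and less RNA per cell cannot be told apart. With all 12 libraries in one fit, 54 of the 105 were lower and 17 higher, where 17.6% of 26328 tested genes were lower and 17% higher.

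**Figure D1:**
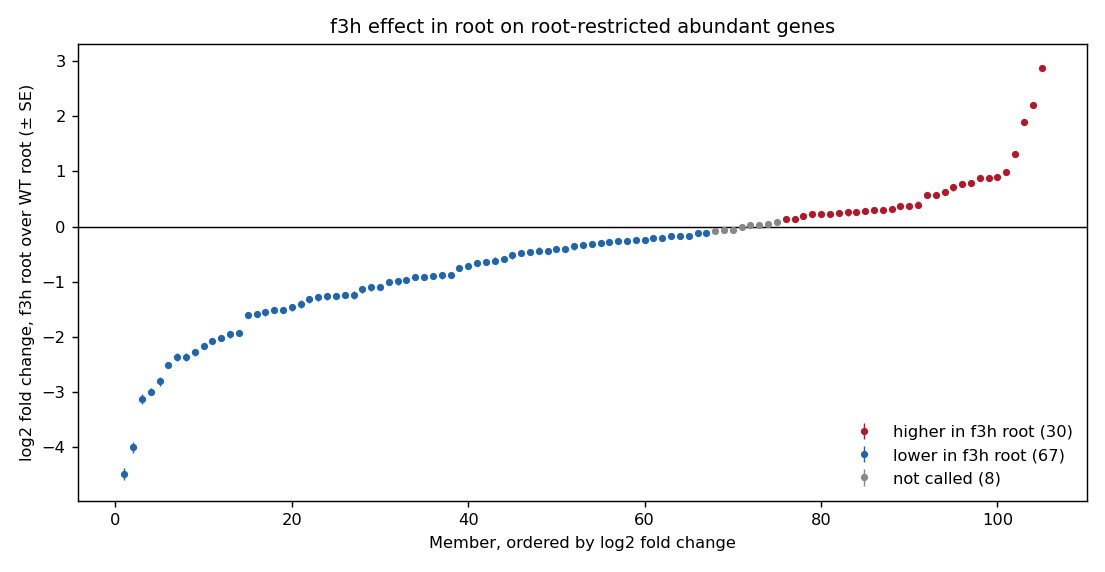
Each point is one of the 105 loci, ordered by its log2 fold change in f3h root over WT root (y axis, edgeR fit, bars are ± SE, mostly smaller than the points), with colour for the call. The 67 lower loci reach -4.49 and the 30 higher loci reach 2.88.

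Summed over the 105 loci, the level was 34484 ± 493 CPM in f3h root and 38572 ± 991 CPM in WT root (SD, n = 3 each), that is 3.39% to 3.48% of all counts in f3h root and 3.77% to 3.96% in WT root. The 3 libraries of each genotype did not overlap in this sum. This gap is the net of falls and rises that partly cancel. The largest single difference was that of Os06g0302000, the most abundant of the 105 in WT root, with means of 556 CPM in f3h root and 3119 CPM in WT root. Without it the sums were 33928 ± 469 CPM in f3h root and 35453 ± 924 CPM in WT root. The median coefficient of variation between the libraries of a group was 3.49% in f3h root and 4.39% in WT root.

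The 8 largest falls included that of the most abundant locus. Os06g0302000 had 574, 566 and 528 CPM in f3h root, against 3109, 3191 and 3058 CPM in WT root. It fell by 2.52 on the log2 scale (SE 0.03, adjusted p = 3.46e-30) and stood at rank 17 of the 105 in f3h root, against rank 1 in WT root. Os08g0402500 had the deepest fall, with 6.67, 4.08 and 4.34 CPM in f3h root and 112, 112 and 108 CPM in WT root (log2 fold change -4.49 ± 0.11 SE, adjusted p = 9.54e-24). In f3h root it was the lowest of the 105. Os04g0415800 had 17.6, 19.6 and 15.0 CPM in f3h root and 118, 124 and 117 CPM in WT root (log2 fold change -2.81 ± 0.08). Os07g0105000 had 22.4, 22.5 and 23.6 CPM in f3h root and 117, 123 and 108 CPM in WT root (log2 fold change -2.38 ± 0.07). For each of these the highest f3h root library lay below the lowest WT root library. The 8 largest falls and the 8 largest rises were picked among called members without overlap, so this was fixed by the choice.

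The other 4 of the 8 largest falls lay in 2 pairs of neighbouring loci. Os11g0306400 had 20.3, 15.2 and 11.3 CPM in f3h root and 247, 253 and 239 CPM in WT root (log2 fold change -4.01 ± 0.10). Os11g0307300, the next member on chromosome 11, had 46.9, 40.8 and 44.1 CPM in f3h root and 328, 354 and 347 CPM in WT root (log2 fold change -2.99 ± 0.06). These 2 loci follow each other directly in the table's identifier order. On chromosome 8, Os08g0189100 had 39.6, 30.3 and 26.4 CPM in f3h root and 289.9, 275 and 261 CPM in WT root (log2 fold change -3.13 ± 0.09). Os08g0189200 had 27.7, 27.3 and 26.9 CPM in f3h root and 147, 133 and 134 CPM in WT root (log2 fold change -2.37 ± 0.07). In all 4 the genotypes were apart by far more than the spread between libraries. The 59 falls outside these 8 ran from -2.28 to -0.12.

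**Figure D2:**
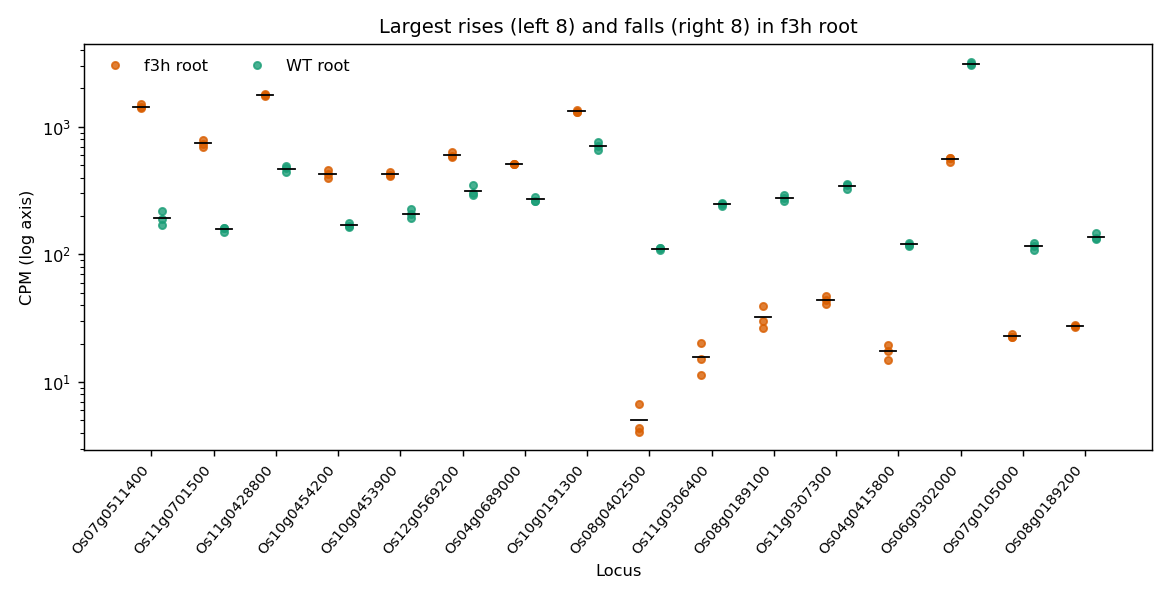
CPM of each library (y axis, log scale) for the 8 largest rises and the 8 largest falls, f3h root left of WT root at each locus, with a bar at the mean of 3 libraries. The loci were picked among called members without overlap between the genotypes. Os06g0302000 stands at 556 CPM in f3h root and 3119 CPM in WT root.

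Of the 3 largest rises, 2 belonged to loci below the median of the 105 in WT root, 230.2 CPM. Os07g0511400 had 1497, 1421 and 1390.4 CPM in f3h root, against 169, 217 and 188 CPM in WT root (log2 fold change 2.88 ± 0.06 SE, adjusted p = 4.68e-26). Os11g0701500 had 780.4, 739 and 699.9 CPM in f3h root, against 162, 162 and 149 CPM in WT root (log2 fold change 2.2 ± 0.05, adjusted p = 1.99e-25). Os11g0428800 had 1811, 1770.2 and 1729.7 CPM in f3h root, against 439, 491 and 473 CPM in WT root (log2 fold change 1.89 ± 0.04, adjusted p = 5.27e-26). All 3 were above WT root in every library. Means of 1000 CPM or more were reached by 6 of the 105 in f3h root and by 3 in WT root.

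Os10g0454200 had 456, 424 and 399 CPM in f3h root and 166, 176 and 164 CPM in WT root (log2 fold change 1.31 ± 0.05). Its direct neighbour in identifier order, Os10g0453900, had 442, 408 and 418 CPM in f3h root and 207, 225 and 192 CPM in WT root (log2 fold change 0.99 ± 0.05). Both rose without overlap between the genotypes, again as the choice required. The remaining 3 of the 8 largest rises were close to each other in size. Os12g0569200 had 594, 638 and 574 CPM in f3h root and 305, 347 and 294 CPM in WT root (log2 fold change 0.90 ± 0.05). Os04g0689000 had 509, 514 and 508 CPM in f3h root and 264, 283 and 262 CPM in WT root (log2 fold change 0.89 ± 0.04). Os10g0191300 had 1315, 1363 and 1312 CPM in f3h root and 700.4, 763 and 652 CPM in WT root (log2 fold change 0.89 ± 0.04). The 22 rises outside these 8 were small, from 0.13 to 0.80.

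Of the named genes, NSHB2 and CHT2 fell in f3h root, and GER4 and MT4C rose. The haemoglobin NSHB2 had 633, 614 and 616 CPM in f3h root and 938, 993 and 949 CPM in WT root (log2 fold change -0.66 ± 0.04, adjusted p = 1.74e-15). The chitinase CHT2 had 211, 227 and 217 CPM in f3h root and 813, 845 and 778 CPM in WT root (log2 fold change -1.93 ± 0.04, adjusted p = 4.99e-25). The f3h root libraries of both lay below every WT root library. The germin-like GER4 had 641, 698 and 682 CPM in f3h root and 535, 554 and 528 CPM in WT root (log2 fold change 0.29 ± 0.04, adjusted p = 3.20e-07). The metallothionein MT4C had 233, 231 and 231 CPM in f3h root and 149, 161 and 147 CPM in WT root (log2 fold change 0.58 ± 0.05, adjusted p = 6.51e-11). The f3h root libraries of both lay above every WT root library, as in 30.3% of all tested genes. GER4 was no longer called in the fit on all 12 libraries. Each of these names belongs to a family with similar members, and reads of near-identical copies may have been split or shared by the counting.

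The most abundant loci did not move together. After Os06g0302000, the highest WT root means belonged to Os10g0109600, Os02g0583700, NSHB2 and Os03g0183000. Os10g0109600 rose slightly, with 3422, 3299 and 3335 CPM in f3h root and 2746, 2567 and 2683 CPM in WT root (log2 fold change 0.30 ± 0.03, adjusted p = 1.10e-10), and was the highest of the 105 in f3h root. Os02g0583700 fell, with 725, 753 and 759.6 CPM in f3h root and 1771, 1795 and 1646 CPM in WT root (log2 fold change -1.25 ± 0.04, adjusted p = 1.84e-22). Os03g0183000 fell, with 713, 730.3 and 706 CPM in f3h root and 951, 975 and 919.8 CPM in WT root (log2 fold change -0.44 ± 0.04, adjusted p = 1.38e-11). None of these groups overlapped.

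Of 9 lists of root, transport, nutrition and defence genes, 1 locus was among the 105. This was Os02g0662000, from the list for root patterning, endodermis and root hairs, with 285, 290.5 and 269.7 CPM in f3h root and 508, 534 and 505 CPM in WT root (log2 fold change -0.90 ± 0.04, adjusted p = 8.38e-17). The f3h root libraries lay below every WT root library. In that list 6 of 7 tested loci fell and 0 rose in f3h root by the edgeR test, with a median log2 fold change of -0.90. Of the list for nitrogen, phosphate and potassium uptake, 8 of 11 tested loci fell and 1 rose (median -1.28). Of the aquaporins, the water channels of plant membranes, 6 of 10 fell and 2 rose (median -0.60). Of the list for iron uptake and phytosiderophores, the secreted chelators with which grasses take up iron, 8 of 12 rose and 1 fell (median 0.63). The other 5 lists were mixed or small. In silicon and metal transport 5 of 9 tested loci fell and 1 rose (median -0.15), in stress and defence proteins 3 of 8 fell and 3 rose (median -0.23), and in the diterpenoid phytoalexins, antimicrobial compounds of rice, 1 of 7 fell and 2 rose (median -0.25). In carbohydrate use and fermentation 2 of 5 fell and 1 rose (median -0.64), and in strigolactone synthesis none of 3 passed the test (median 0.27). Over all tested genes 25.4% were lower and 24.9% higher, with a median of 0.01. The lists were written with earlier results of these data known.

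Part of the 105 lay close together in the order of locus identifiers. Taking members at most 20 table loci apart on a chromosome, 22 of the 105 fell into 8 runs. The longest run held 5 loci within 10 consecutive identifiers of chromosome 8: in f3h root over WT root, log2 fold changes were -3.13 for Os08g0189100, -2.37 for Os08g0189200, -2.08 for Os08g0189600, -0.65 for Os08g0189900 and -0.06 for Os08g0190100. The last of these overlapped between the genotypes, with 162, 173 and 179 CPM in f3h root and 182, 174 and 169.6 CPM in WT root (adjusted p = 0.315). The others fell without overlap. Os08g0189600 had 41.0, 43.5 and 43.0 CPM in f3h root and 187, 169 and 171 CPM in WT root, and Os08g0189900 had 112, 108 and 111 CPM in f3h root and 169.7, 162 and 178 CPM in WT root.

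The next longest run held 4 loci within 15 identifiers of chromosome 2, of which 3 fell and 1 rose. Os02g0582900 had 90.4, 96.1 and 93.6 CPM in f3h root and 258, 304 and 263 CPM in WT root (log2 fold change -1.59 ± 0.06). Os02g0584200 had 92.9, 91.1 and 85.9 CPM in f3h root and 168, 192 and 172 CPM in WT root (log2 fold change -1.01 ± 0.06). Os02g0583700 between them fell as given above. Os02g0585650 rose, with 227, 215 and 211 CPM in f3h root and 170.1, 197 and 168 CPM in WT root (log2 fold change 0.26 ± 0.06, adjusted p = 3.10e-04), a call lost in the fit on all 12 libraries. Among the 6 shorter runs, 2 moved in opposite directions within the run. On chromosome 11, Os11g0700900 fell with 50.7, 48.9 and 52.0 CPM in f3h root and 122, 126 and 109 CPM in WT root (log2 fold change -1.27 ± 0.07), whereas Os11g0701500 rose as given above. On chromosome 10, Os10g0552600 and Os10g0552800 fell by 0.22 and by 0.29 on the log2 scale and Os10g0554800 rose by 0.26. Neighbours with similar sequence may share reads, which the table cannot show.

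**Figure D3:**
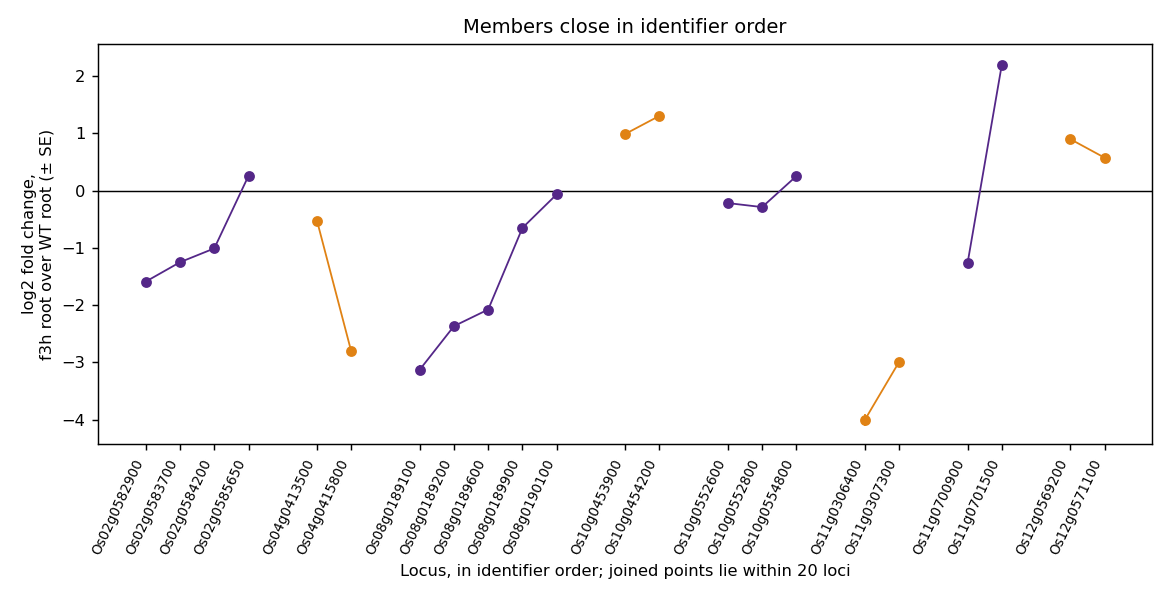
Log2 fold change in f3h root over WT root (y axis, bars ± SE) for the 22 members that lie at most 20 table loci from another member, in identifier order, with joined points for each of the 8 runs. The run on chromosome 8 goes from -3.13 at its first locus to -0.06 at its last.

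By chromosome, members were most frequent on chromosomes 10 and 8, with 10 of 2112 and 12 of 2586 table loci, and least frequent on chromosomes 9 and 12, with 2 of 2110 and 3 of 2174. On chromosome 8, 9 of the 12 fell and 1 rose in f3h root, and 4 of these 9 falls belong to the run described above. On chromosome 10, 4 of the 10 fell and 5 rose. Over the 105 the shares were 63.8% lower and 28.6% higher, and over all tested genes 25.4% and 24.9%.

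The comparison of organs within f3h asked whether these loci are also restricted to root in libraries that the choice did not use. In f3h root against f3h leaf, 104 of the 105 were higher by at least 1 on the log2 scale (edgeR, adjusted p threshold 0.05). None was lower by as much. Of 24822 tested genes, 28.8% were higher and 24% lower by the same limits. With this limit on the fold change, 0 of the 105 were lower at an unadjusted p under 0.05, and 0 by DESeq2 and by limma voom. The median log2 ratio of f3h root to f3h leaf was 9.66, with the 17 members without a count in f3h leaf set at their floor of 3 counts over the group, 0.0281 CPM. That ratio is of CPM by library total. The median of the fitted log2 fold changes was 8.99 over the 105 and 0.08 over all tested genes. The exception was NSHB2, which was lower in f3h root than in f3h leaf by 0.99 on the log2 scale (SE 0.06, edgeR, adjusted p = 1.93e-10), just short of the limit on the fold change.

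Fewer loci meet the limits when they are applied to the f3h libraries. There, 58 loci pass, of which 46 are among the 105, that is 43.8% of the 105 and 79.3% of the 58. Of the 59 members that no longer meet them, 15 lie under 100 CPM in f3h root only, 30 exceed 0.2% in f3h leaf only, and 14 do both. Because members were picked for a high WT root mean and a low WT leaf mean, a loss in other libraries is favoured by the choice.

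The leaf comparison asked whether any of the 105 appear in f3h leaf, and 1 did at the level of its root. NSHB2 had 749, 845 and 739 CPM in f3h leaf, against 0.192, 0.0571 and 0 CPM in WT leaf. In counts, these are 82803 over the 3 f3h leaf libraries and 8 over the 3 WT leaf libraries, and the log2 fold change was 13.21 ± 0.32 (edgeR, adjusted p = 2.45e-08). WT leaf was low by choice, so this p-value and those of the other members in leaf are a description only. In CPM by library total, every f3h leaf library lay above every f3h root library of the gene and below every WT root library. On that scale this haemoglobin was at 125% of its f3h root level in f3h leaf and at 0.00867% of its WT root level in WT leaf. In the edgeR fits, f3h root stood lower than f3h leaf by 0.99 and lower than WT root by 0.66 on the log2 scale. The place of f3h leaf against WT root therefore depends on the normalization. It made up 85.7% of the summed level of the 105 in f3h leaf. Without WT leaf replicate 1 the log2 fold change of NSHB2 in leaf was 14.57. This shift exceeds the SE given above, which rests on 8 counts in WT leaf.

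The rest of the 105 stayed below their root levels in f3h leaf, at 20.6% of the f3h root level or less in CPM. Without NSHB2, the sum was 126 to 133 CPM in f3h leaf and 11.9 to 16.4 CPM in WT leaf, against 33299 to 34156 CPM in f3h root. Beside this, the 6 root markers given above summed to 12.4 ± 1.82 CPM in f3h leaf and 14.4 ± 3.15 CPM in WT leaf (SD, n = 3 each). Most of that sum was LSI1, with 10.3 ± 1.39 CPM in f3h leaf and 9.87 ± 3.25 CPM in WT leaf. Apart from Os02g0662000 the markers were not chosen for a low WT leaf level as the 105 were, so the sums are not matched, and the part of root RNA in the leaf values was not tested. The median member had 0.155 CPM in f3h leaf and 0.0411 CPM in WT leaf. No count at all was listed for 17 members in f3h leaf and for 27 in WT leaf, 8 of them in both. A count of 0 allows up to 0.0281 CPM over the f3h leaf libraries and 0.0300 CPM over the WT leaf libraries, for counting error only.

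Of the 105, 37 passed the filter on low counts in leaf. WT leaf was low by choice, so a member could pass mainly through f3h leaf. Their calls are therefore a description: 25 were higher in f3h leaf and none lower (edgeR; 1 lower at an unadjusted p under 0.05, 0 lower by DESeq2, 1 by limma voom), where 17.9% of 22438 tested genes were higher and 18.6% lower. In the fit on all 12 libraries, in which all 105 were tested, 48 were higher and 7 lower, where 19.6% of all tested genes were higher and 18.2% lower. The 68 that did not pass reached at most 0.512 CPM in f3h leaf. A mean of at least 1 CPM in f3h leaf, taken here as being read there, was reached by 21 members, of which 19 were called higher. The other 2 were Os01g0263300, with 2.40 ± 0.0536 CPM in f3h leaf and 1.69 ± 0.285 CPM in WT leaf, and Os01g0787600, with 1.58 ± 0.582 CPM in f3h leaf and 0.856 ± 0.277 CPM in WT leaf (SD, n = 3 each). The same 19 were found without WT leaf replicate 1, when 32 of 45 tested members were higher, where 24.9% of all tested genes were. Of the 19, 9 fell, 9 rose and 1 did not pass the test in f3h root, where over all 105 there were 67, 30 and 8.

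**Figure D4:**
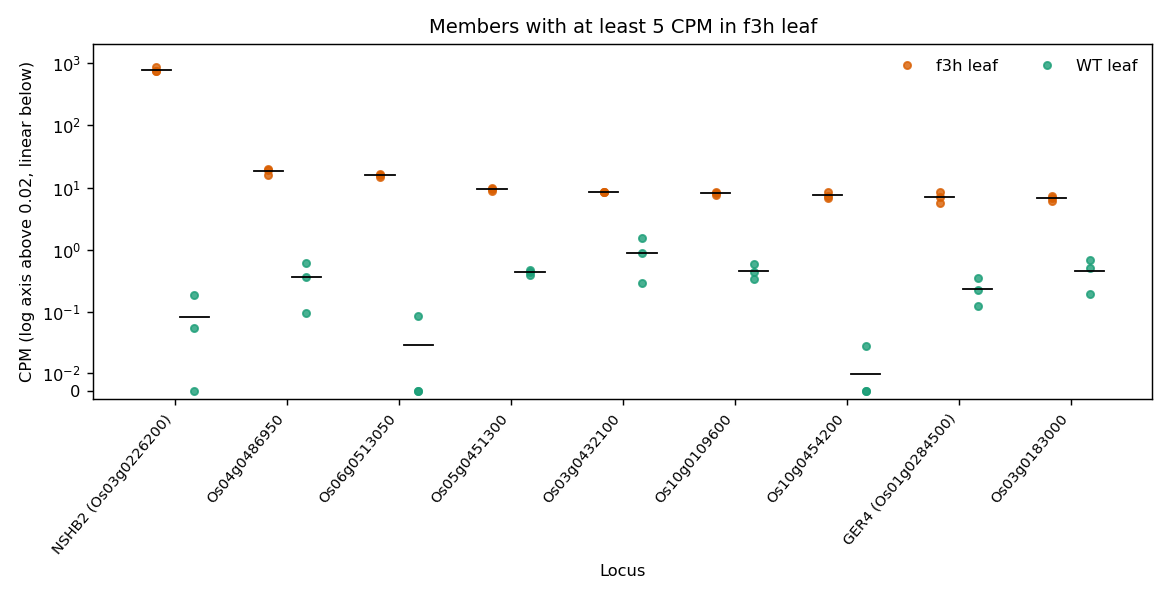
CPM of each library (y axis, logarithmic above 0.02 and linear below, down to 0) for the 9 members with a mean of at least 5 CPM in f3h leaf, f3h leaf left of WT leaf at each locus, with a bar at the mean. NSHB2 stands at 778 CPM in f3h leaf, and the next member at 18.2 CPM.

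After NSHB2 the highest f3h leaf levels belonged to Os04g0486950 and Os06g0513050. Os04g0486950 had 16.1, 18.9 and 19.6 CPM in f3h leaf and 0.0962, 0.371 and 0.621 CPM in WT leaf (log2 fold change 5.64 ± 0.37, adjusted p = 5.38e-06). This was 6.60% of its f3h root level, and in root it rose slightly, with 261, 282 and 283 CPM in f3h root and 223, 246 and 224 CPM in WT root (log2 fold change 0.22 ± 0.05, adjusted p = 3.98e-04), a call lost in the fit on all 12 libraries. Os06g0513050 had 15.9, 14.9 and 16.4 CPM in f3h leaf, 1683 counts in all, and 0, 0 and 0.0887 CPM in WT leaf, 3 counts in all, a ratio of 525 with an exact 95% interval of 179 to 2548. This interval and those below cover counting error in these libraries and do not allow for the choice of loci with a low WT leaf count. Its f3h leaf level was 20.6% of its f3h root level, the next highest share after that of NSHB2. In root it fell, with 68.1, 81.3 and 79.7 CPM in f3h root and 156, 149.5 and 140.2 CPM in WT root (log2 fold change -0.99 ± 0.06, adjusted p = 1.24e-13).

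The next 3 stood near 9 CPM or below. Os05g0451300 had 9.60, 9.90 and 8.75 CPM in f3h leaf and 0.449, 0.400 and 0.473 CPM in WT leaf (log2 fold change 4.44 ± 0.22, adjusted p = 9.86e-07). In root it was close between the genotypes, with 218, 208 and 206 CPM in f3h root and 222, 224 and 226 CPM in WT root (log2 fold change -0.12 ± 0.05, adjusted p = 0.0343), and this call was lost when any one library other than f3h root replicate 1 was left out, with adjusted p from 0.0507 to 0.131. Os03g0432100 had 8.35, 8.48 and 8.49 CPM in f3h leaf and 1.54, 0.885 and 0.296 CPM in WT leaf (log2 fold change 3.26 ± 0.42, adjusted p = 3.09e-04). Os10g0109600 had 8.65, 8.08 and 7.64 CPM in f3h leaf and 0.449, 0.343 and 0.591 CPM in WT leaf (log2 fold change 4.16 ± 0.26, adjusted p = 3.81e-06). For all 3 every f3h leaf library was above every WT leaf library, as in 24.9% of all genes tested in leaf. With WT leaf low by choice, this and the leaf p-values are a description. The f3h leaf levels of Os03g0432100 and Os10g0109600 were 0.802% and 0.242% of those in f3h root. Os03g0432100 had 1046, 1032 and 1080.5 CPM in f3h root and 836, 832 and 859.8 CPM in WT root, a rise of 0.29 on the log2 scale that was not called in the fit on all 12 libraries.

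Some of the loci that moved most in root were also read in f3h leaf, and some were not. The neighbours Os10g0454200 and Os10g0453900, which both rose in f3h root, had 6.80, 7.21 and 8.54 CPM and 2.18, 2.29 and 2.64 CPM in f3h leaf. In WT leaf they had 1 and 2 counts over the 3 libraries, which gave ratios of 754 (exact 95% interval 135 to 29820) and 119 (32.6 to 986). Os12g0569200 had 4.54, 3.99 and 3.20 CPM in f3h leaf and 2 counts over WT leaf, a ratio of 195 (53.7 to 1616). Os04g0689000 had 1.55, 1.98 and 0.978 CPM in f3h leaf and no count in WT leaf, and was at least 49.3-fold higher in f3h leaf. By contrast, Os11g0428800, at 1770.2 CPM in f3h root, had no count in any f3h leaf library and 8 counts over WT leaf. Os07g0511400, at 1436 CPM in f3h root, had 0.952, 0.402 and 0.106 CPM in f3h leaf and 0.192, 0.0571 and 0 CPM in WT leaf, which overlap.

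Among the other named genes, GER4 was read in f3h leaf and the others hardly. GER4 had 5.63, 8.42 and 6.98 CPM in f3h leaf and 0.128, 0.228 and 0.355 CPM in WT leaf (log2 fold change 4.88 ± 0.36, adjusted p = 1.03e-05), 1.04% of its f3h root level. CHT2 had 0.734, 1.08 and 0.317 CPM in f3h leaf and 0.192, 0.228 and 0.118 CPM in WT leaf (log2 fold change 1.99 ± 0.64, adjusted p = 0.0352), a call that 7 of 13 alternatives ended. MT4C had 0.326, 0.186 and 0 CPM in f3h leaf and 0.385, 0.171 and 0.237 CPM in WT leaf, which overlap, and was too low to be tested. Of the 8 largest falls in root, none had a mean of 1 CPM in f3h leaf. The highest of them was Os08g0402500, with 1.20, 0.805 and 0.820 CPM in f3h leaf and 0.128, 0.0571 and 0.148 CPM in WT leaf (log2 fold change 3.08 ± 0.57, adjusted p = 0.00269), so that f3h leaf held 18.7% of the f3h root level of this locus.

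**Figure D5:**
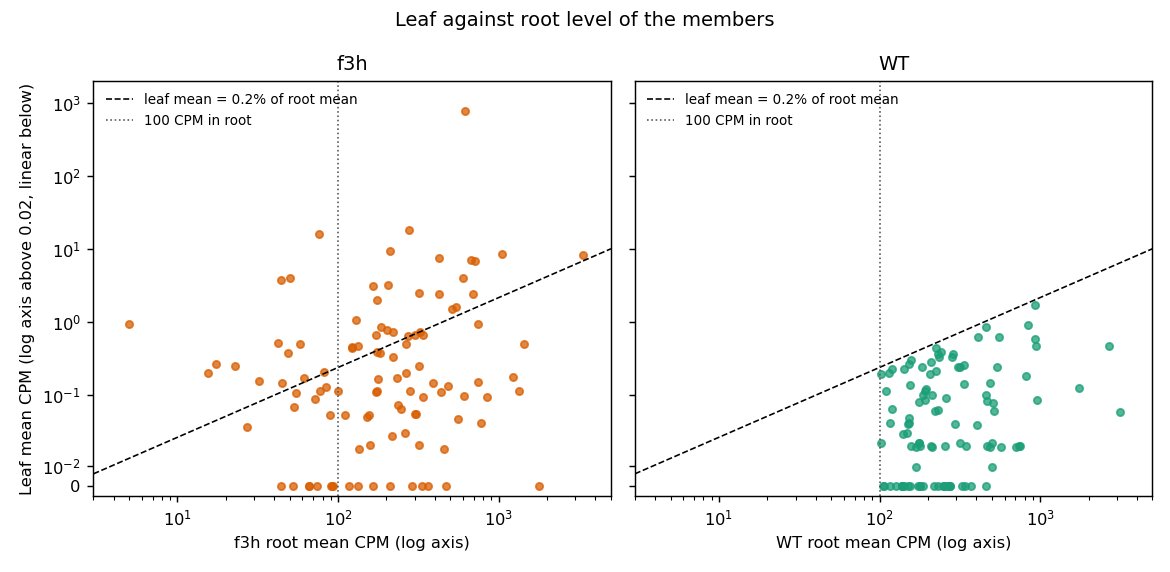
Leaf mean CPM (y axis, logarithmic above 0.02 and linear below) against root mean CPM (x axis, log scale) of the 105 loci, in f3h on the left and in WT on the right, with the 2 limits of the choice as lines. All points of the WT panel lie within the limits by construction, and in f3h 29 points lie left of 100 CPM and 44 above the line for 0.2%.

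The limits cut through a continuum of levels. Just inside the root limit were Os11g0245200 at 102 ± 7.28 CPM and Os07g0442900 at 103 ± 2.90 CPM in WT root, and just outside it were Os04g0445000 at 99.5 ± 3.40 CPM and Os09g0399800 at 99.3 ± 9.86 CPM (SD, n = 3 each). Just inside the leaf limit, Os05g0451300 and Os11g0700900 had WT leaf means of 0.197% and 0.190% of their WT root means, and just outside it Os08g0414700 and Os03g0182800 had 0.201% and 0.206%.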

How the data were processed

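Raw read counts per gene, whole numbers without normalization, are what the authors deposited for the 12 libraries. The submitters' processing notes name DESeq, fastp, featureCounts and HISAT2; versions, the annotation, the build of the genome and whether strand was used were not given in the sources used here. Counts were scaled to CPM by library total, which is not corrected for gene length, so levels are compared within a locus. Tests used the quasi-likelihood method of edgeR 4.0.16 under R 4.3.3 (TMM normalization after filterByExpr, Benjamini-Hochberg adjustment over all tested genes, threshold 0.05), separately for f3h root against WT root, f3h leaf against WT leaf and f3h root against f3h leaf, on 6 libraries each. Adjusted p-values and log2 fold changes are from this test unless a setting is named, ± values of fold changes are standard errors, and other ± values are SD. The procedure was tested on simulated counts. Each ratio with 1 to 3 counts in a group has an exact (Clopper-Pearson) 95% interval, and a count of 0 was read as up to 3 counts over the group; both describe counting error alone, as PCR copies of a molecule are not independent. At least 5.42 in chi-square per degree of freedom separated every pair of replicates, so none was merged.

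The members, gene lists and markers were chosen with earlier results of these data known. Loci given with values are the 8 largest rises and 8 largest falls in f3h root among called members without overlap, the 5 highest in WT root, the 6 highest in f3h leaf, list members and loci at the limits; named genes, further loci read in f3h leaf and members of runs were added after their values were seen. The reference table (RefSeq, assembly ASM3414082v1) does not pair these loci with names, so names were paired from general knowledge. A name was printed only where it stood on the locus's chromosome within 0.05 of the locus in rank order, as a fraction of the chromosome's loci. By this check 69 of 89 list names and 4 of 5 added pairings passed. Alternatives were upper quartile and RLE normalization, no count filter, DESeq2 1.42.0, limma 3.58.1 voom, a fit on all 12 libraries, a replicate block, leaving out each library, and other limits for membership.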

Additional observations from a re-analysis of the deposited data

Results flagged for a closer look

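For 26 of the 105, every f3h leaf library lay above every WT leaf library while every f3h root library lay below every WT root library, so the f3h effect pointed in opposite directions in the 2 organs; the difference between the organs was not tested here. The reverse pattern was seen in 1 member. A low WT leaf level and a high WT root level were part of the choice and favour the pattern of the 26. Non-overlap in 1 organ alone was common among the other 2077 loci with a WT root mean of at least 100 CPM. Every f3h root library lay below every WT root library in 44.5% of these. Every f3h leaf library lay above every WT leaf library in 36.8% of the 2077 and in 24.9% of all genes tested in leaf. Loci outside the 105 with both differences were not counted, so whether 26 is an unusual number was not tested. Of the 26, 16 had a mean under 1 CPM in f3h leaf, and the other 10 are given here. The largest of these was NSHB2 (Os03g0226200), at 778 CPM in f3h leaf and 0.0832 CPM in WT leaf, and at 621 CPM in f3h root and 959.8 CPM in WT root. Os06g0513050 stood at 15.7 CPM in f3h leaf and 0.0296 CPM in WT leaf, and at 76.4 CPM in f3h root and 148 CPM in WT root. Os05g0451300 stood at 9.42 CPM in f3h leaf and 0.441 CPM in WT leaf, with root means of 211 CPM in f3h and 224 CPM in WT. Os03g0183000 stood at 6.71 CPM in f3h leaf and 0.464 CPM in WT leaf, with root means of 716 CPM in f3h and 949 CPM in WT. Os11g0700900 stood at 3.99 CPM in f3h leaf and 0.227 CPM in WT leaf, with root means of 50.5 CPM in f3h and 119 CPM in WT. Os07g0442900 stood at 3.68 CPM in f3h leaf and 0.0214 CPM in WT leaf, with root means of 44.2 CPM in f3h and 103 CPM in WT. Os12g0548700 stood at 3.21 CPM in f3h leaf and had no count in WT leaf, with root means of 204 CPM in f3h and 266 CPM in WT. Os09g0447300 stood at 3.13 CPM in f3h leaf and 0.121 CPM in WT leaf, with root means of 166 CPM in f3h and 194 CPM in WT. Os01g0263300, whose leaf difference was not called, stood at 2.40 CPM in f3h leaf and 1.69 CPM in WT leaf, with root means of 694 CPM in f3h and 931 CPM in WT. Os01g0949800 stood at 1.05 CPM in f3h leaf and 0.0999 CPM in WT leaf, with root means of 129 CPM in f3h and 213 CPM in WT.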

How the results depend on the processing

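In f3h root against WT root, 30 members higher and 67 lower became 17 and 54 in the fit on all 12 libraries, where 34.6% of all tested genes were called; upper quartile and RLE normalization, no count filter, DESeq2 and limma voom gave 30 or 31 higher and 65 to 68 lower, and leaving out 1 library gave 29 to 31 higher and 64 to 66 lower. In leaf, 25 higher and 0 lower became 48 higher and 7 lower in the fit on all 12 libraries, in which all 105 members were tested; no count filter and limma voom each called 1 lower (Os03g0732000 and Os03g0235000, named after their values were seen), and leaving out 1 library gave 24 to 32 higher and 0 to 2 lower. In f3h root against f3h leaf, 104 were higher when any library was left out, and 0 to 1 lower, the 1 being NSHB2. A root limit of 50 CPM gave 176 members and one of 200 CPM gave 63; leaving out a WT library gave 103 to 108 members, of which 25.0% to 29.0% were higher and 63.6% to 67.3% lower in f3h root. CPM by TMM effective library size gave 85 members. Apart from the number of members tested, the cause was not tested.

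With the replicate number as a block, 30 members were higher and 67 lower in root, 23 higher and 0 lower in leaf, and 104 higher in f3h root than in f3h leaf. Deviations of same-numbered libraries from their group means correlated between -0.0552 and 0.0214. In the root comparison each replicate correlated best with its own number, at 0.00758 to 0.0214, and in the other comparisons none did. With values this near 0, the main tests used no pairing by number. Of the values for single loci, 483 of 494 in root, 207 of 221 in leaf and 494 of 494 between the organs of f3h kept their direction and call; the other 25 kept their direction and lost the call, and none reversed. These 25 belong to 7 loci: in root Os05g0451300, Os04g0486950, Os02g0585650, Os03g0432100 and GER4, and in leaf CHT2 and Os11g0701500. In leaf, levels under about 1 CPM rest on few counts and set a limit on what could be tested.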
